A study of Rattus norvegicus with 6 samples.

Results

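Smooth-muscle-type contractile genes and targets of the transcription factors SRF and YAP were followed in the transcriptome of rat nucleus pulposus cells (NPCs), the cells of the gel-like core of the intervertebral disc. The members were 10 genes chosen by symbol from the combined count table, out of 20264 rows. The choice used no threshold on their values, but it was made with earlier results of these data known. Of these, 7 encode parts of the contractile apparatus (Acta2, Actg2, Tagln, Cnn1, Myl9, Tpm1 and Tpm2), and 3 are targets of YAP, SRF or both (Ccn1, Ccn2 and Ankrd1). Primary NPCs had been taken from tail discs of wild-type male Sprague-Dawley rats of 120 to 150 g, whose age was not given, and were grown in medium with 15% fetal bovine serum. The TBHP group (3 libraries) received tert-butyl hydroperoxide, an oxidant used to bring on senescence, and the TBHP+FGF21 group (3 libraries) received TBHP together with recombinant rat FGF21. Every library in the comparison therefore came from TBHP-treated cells, and untreated cells are not analysed here. The treatment labels of the TBHP+FGF21 group differ, with FGF21 in replicate 1, but FGF22 in replicate 2 and FGF23 in replicate 3, while the design of the series gives FGF21 for all of them, and that grouping was used.

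The contractile proteins of smooth muscle also appear in fibroblast-like cells that spread on plastic and pull on their matrix. Their genes are switched on by SRF, which binds the CArG box and is driven by the cofactors MRTF-A and MRTF-B when globular actin is taken up into filaments, and in smooth muscle by myocardin. YAP and TAZ are cofactors that enter the nucleus when the Hippo kinases are quiet, as on a stiff support, and act through TEAD factors on genes such as Ccn1, Ccn2 and Ankrd1. Serum and TGF-beta raise both sets in cultured mesenchymal cells.

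The sequences that these factors are known to read were looked for in the promoters of the members. RefSeq's GRCr8 promoter table, with 250 bases before and 50 bases after each start site, held 7 of the 10 members, and Tagln, Myl9 and Ankrd1 were not among them. The TEAD core, GGAATG on either strand, was found in 4 of the 7 (Ccn2, Ccn1, Acta2 and Tpm1) and in 14.2% of all promoters of this length in the table. The stretches that hold the matches are printed 5′ to 3′ on the strand of the gene, with the matches in capitals, because they show how the members differ.

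Ccn2: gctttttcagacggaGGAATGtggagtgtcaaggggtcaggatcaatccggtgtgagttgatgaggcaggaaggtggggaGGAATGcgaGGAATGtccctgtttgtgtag
Ccn1: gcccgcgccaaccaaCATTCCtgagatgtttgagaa
Tpm1: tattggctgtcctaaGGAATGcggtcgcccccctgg
Acta2: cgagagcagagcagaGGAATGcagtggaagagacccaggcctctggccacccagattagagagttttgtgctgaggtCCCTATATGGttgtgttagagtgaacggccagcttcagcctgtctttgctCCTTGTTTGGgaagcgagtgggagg

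These lie on the minus strand of GRCr8 at chr1:22624686-22624795 for Ccn2, chr2:237225782-237225817 for Ccn1, chr8:76543426-76543461 for Tpm1 and chr1:241172563-241172714 for Acta2. The genome build of the deposited counts was not given in the sources used here, so these positions belong to the RefSeq sequence alone. Ccn2 held GGAATG 3 times, where 0.0956% of all promoters held it at least 3 times, starting 166, 101 and 92 bases before its start site. The CArG box with a core of A and T alone, found in 1.64% of all promoters, was in none of the 7. With 1 G or C allowed in the core, a setting chosen after these sequences had been read, 9.42% of all promoters matched, and of the 7 members Acta2 alone did. Its matches, CCCTATATGG and CCTTGTTTGG, start 134 and 84 bases before the start site, and 0.846% of all promoters held at least 2. No match overlapped another in the printed stretches. A match is a description of the letters, and binding was not measured here.

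The libraries held 18277732 to 22426190 counts in the combined table, and the members took 0.911% to 1.46% of them. Levels are given as CPM, the count scaled to a library of 1000000, after TMM scaling, which corrects for the total and the composition of each library. Groups were compared with edgeR's quasi-likelihood test over the 11426 genes that passed a filter on low counts, and p-values were adjusted over all of these by the Benjamini-Hochberg method. A gene was called where the adjusted p was under 0.05. By this rule 0.00875% of the genes tested, a single one, were called.

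Each of the 10 members had enough counts for the test, and all 10 had a log2 fold change below 0, that is, a lower fitted level in the TBHP+FGF21 group. A value below 0 was seen for 51.1% of all genes tested. None of the members had an adjusted p under 0.05, and none had an absolute log2 fold change above 1, which 0.534% of all genes had at an unadjusted p under 0.05. At an unadjusted p under 0.05 there were 3 members, Tpm1, Acta2 and Tagln, all lower, against 4.29% of all genes tested in that direction and 8.92% in either. The groups were apart, with every TBHP+FGF21 library below every TBHP library, for Tpm1 and Ankrd1, 2 of the 10 members, against 5% of all genes tested. Ankrd1 had few counts and passed the filter mainly through the TBHP libraries, where it was higher. Its sign, its separation and its part in a median are therefore not independent of that filter. The median log2 fold change was -0.33 over the 7 contractile members and -0.26 over Ccn1, Ccn2 and Ankrd1, beside -0.0052 over all genes tested. Leaving out TBHP+FGF21 replicate 2 moved the contractile median to -0.59, leaving out TBHP+FGF21 replicate 3 to -0.17 and leaving out TBHP replicate 1 to -0.20.

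Acta2 encodes smooth muscle alpha-actin, the actin isoform by which myofibroblasts are recognized. It was at 1439, 1330 and 1322 CPM in TBHP replicates 1, 2 and 3, and at 910.2, 1378 and 687.2 CPM in the matching numbers of TBHP+FGF21. Replicates 1 and 3 of the TBHP+FGF21 group thus lay below every TBHP library, and replicate 2 lay among them. The means were 1364 ± 65.6 CPM for TBHP and 992 ± 353 CPM for TBHP+FGF21 (SD, n = 3). On the log2 scale the difference was -0.46 with a standard error of 0.19 (edgeR quasi-likelihood test, unadjusted p = 0.0343, adjusted p = 0.553). In these bulk libraries, fewer cells with a contractile phenotype and less contractile RNA per cell cannot be told apart.

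Tagln encodes transgelin (SM22-alpha), an actin-binding protein of smooth muscle and an SRF target. Its levels were 1946, 1886 and 1668 CPM in the TBHP libraries and 1183, 1879 and 922.5 CPM in the TBHP+FGF21 libraries. The order of the treated libraries was the one seen for Acta2, with replicate 2 at the level of the TBHP group and replicate 3 lowest. Tagln differed by -0.47 on the log2 scale, with a standard error of 0.20 (edgeR, adjusted p = 0.553). A measure that needs no scaling gave the same picture, since Acta2 had 148.1, 143.2 and 135.2 counts per 1000 counts of Actb in the TBHP libraries and 106.9, 145.3 and 77.1 in the TBHP+FGF21 libraries. Actb encodes the beta-actin of all cells, and the other cytoplasmic actin gene, Actg1, had 233 to 270.7 counts per 1000 Actb counts in the TBHP group and 250.4 to 275.9 in the TBHP+FGF21 group. The ratio of Acta2 to Actb did not separate the groups (two-sided exact permutation test, p = 0.3, where 3 libraries against 3 allow no p below 0.1).

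Tpm1 encodes alpha-tropomyosin, which lies along the actin filament, and its gene gives both muscle and non-muscle isoforms that a count per gene does not tell apart. It was at 590.8, 624.7 and 554.2 CPM in the TBHP group and at 392.7, 548.9 and 348.0 CPM in the TBHP+FGF21 group. Every TBHP+FGF21 library was lower than every TBHP library, although replicate 2 was only just below the lowest of them. Its log2 difference of -0.46 had a standard error of 0.15 and a 95% interval from -0.78 to -0.14 (edgeR, unadjusted p = 0.00898, adjusted p = 0.553). Tpm1 had the smallest p of the members.

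Cnn1 and Myl9 stood lower in the same libraries by less. Cnn1 encodes calponin 1, an actin-binding protein of differentiated smooth muscle, and was at 63.9, 50.8 and 49.9 CPM in the TBHP group and 38.7, 58.4 and 33.8 CPM in the TBHP+FGF21 group. Myl9 encodes the regulatory light chain of smooth muscle myosin, whose phosphorylation starts contraction, and was at 174, 164.5 and 144.9 CPM against 120.6, 170.1 and 118.9 CPM. In both genes replicate 2 of the TBHP+FGF21 group exceeded at least one TBHP library, so that the groups overlapped. The log2 fold changes were -0.33 for Cnn1 (standard error 0.18) and -0.24 for Myl9 (standard error 0.14), with an adjusted p of 0.563 and 0.574 by edgeR.

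Tpm2 and Actg2 had the smallest differences of the contractile genes. Tpm2 encodes beta-tropomyosin, and its levels were 874.5, 861.3 and 712.3 CPM in the TBHP libraries and 653.8, 807.6 and 666.4 CPM in the TBHP+FGF21 libraries. Here replicate 1 was the lowest of all libraries, and the SD of the groups was about alike (90.1 and 85.4 CPM). Actg2, the gamma-actin of enteric smooth muscle, was at 33.3, 32.6 and 31.2 CPM in the TBHP group and at 26.8, 36.2 and 22.4 CPM in the TBHP+FGF21 group, so that replicate 2 was the highest of the 6 libraries. Its protein is nearly identical to that of Acta2, and reads that map to several places, which were 6.27% to 7.02% of each library, were not counted for any gene. The log2 fold changes were -0.20 for Tpm2 and -0.19 for Actg2, with 95% intervals from -0.46 to 0.05 and from -0.51 to 0.14.

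Ccn1 (Cyr61) and Ccn2 (CTGF) are secreted matricellular proteins that bind integrins and growth factors, and both are standard readouts of YAP and TEAD activity. Ccn2 was at 7984, 7811 and 7022 CPM in the TBHP libraries and at 6973, 7271 and 4770 CPM in the TBHP+FGF21 libraries. The difference rested on replicate 3 of the TBHP+FGF21 group, at 62.7% of the TBHP mean, while replicates 1 and 2 were at 91.7% and 95.6% of it. On the log2 scale Ccn2 differed by -0.26, with a standard error of 0.15 (edgeR, adjusted p = 0.568), and by -0.09 when that library was left out. Ccn1 was at 1809, 1636 and 1553 CPM against 1538, 1689 and 1337 CPM. With a log2 fold change of -0.13 and a 95% interval from -0.37 to 0.11, it had the smallest difference of the 10 members.

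Ankrd1 encodes a nuclear ankyrin repeat protein of stretched muscle and a direct YAP target. It was near the limit of detection, with 10, 16 and 12 counts in the TBHP libraries and 5, 9 and 11 counts in the TBHP+FGF21 libraries. These were 0.559, 0.725 and 0.563 CPM against 0.237, 0.431 and 0.480 CPM, where 3 counts correspond to 0.134 to 0.164 CPM. The TBHP+FGF21 libraries were all lower, but the log2 fold change of -0.68 had a standard error of 0.41 and a 95% interval from -1.57 to 0.21 (adjusted p = 0.585 by edgeR). Ankrd1 passed the filter mainly through the TBHP libraries, where it was higher, so its direction is not independent of that filter.

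**Figure D1:**
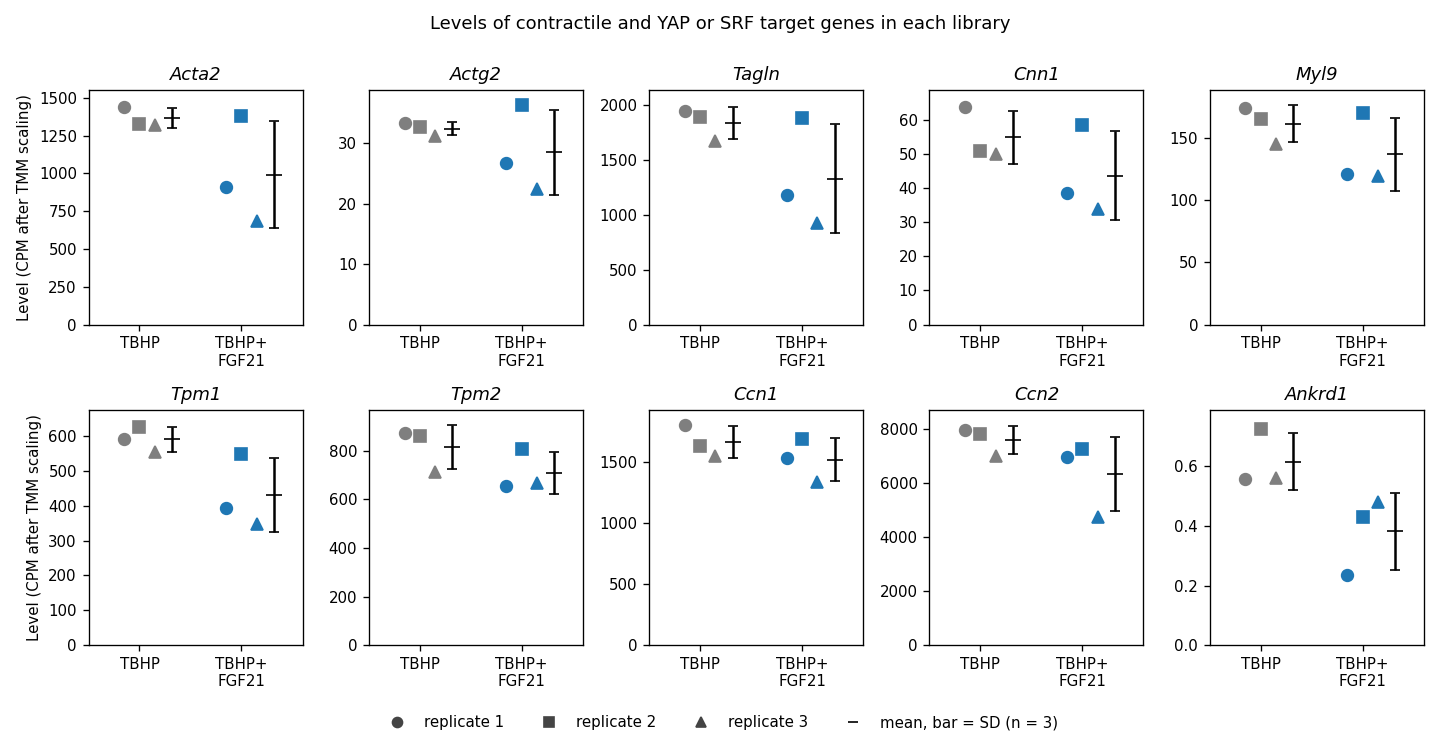
Levels of the 10 genes in CPM after TMM scaling (linear axes from 0), by group, with 1 symbol per library (circle, replicate 1; square, replicate 2; triangle, replicate 3) and the mean with its SD (n = 3) beside them. Replicates 1 and 3 of the TBHP+FGF21 group lie below all TBHP libraries in the 10 panels, and replicate 2 lies above the lowest TBHP library in 8.

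The 7 contractile members varied together across the libraries, and Ccn1, Ccn2 and Ankrd1 followed them only in part. Replicates 1 and 3 of the TBHP+FGF21 group were below every TBHP library for all 10 members, a count made after the values had been seen, and the same held for 19.4% of all genes tested. Replicate 2 of that group was above the lowest TBHP library for 8 members and was the highest of its group for 9, Ankrd1 being the exception. Replicate 3 was the lowest of the 6 libraries for 8 members, and replicate 1 for the other two, Tpm2 and Ankrd1. Averaged over the 7 contractile members, the deviation of log2 CPM from the mean of each gene was 0.28, 0.20 and 0.07 in TBHP replicates 1, 2 and 3. In the TBHP+FGF21 group it was -0.29, 0.22 and -0.48, so replicate 2 stood within the range of the TBHP libraries. Over Ccn1, Ccn2 and Ankrd1 it was 0.21, 0.26 and 0.07 in the TBHP group and -0.30, 0.01 and -0.25 in the TBHP+FGF21 group. The value of -0.30 in replicate 1 rested on Ankrd1, at -0.88 from 5 counts. In that library Ccn1 was at -0.05 and Ccn2 at 0.02.

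**Figure D2:**
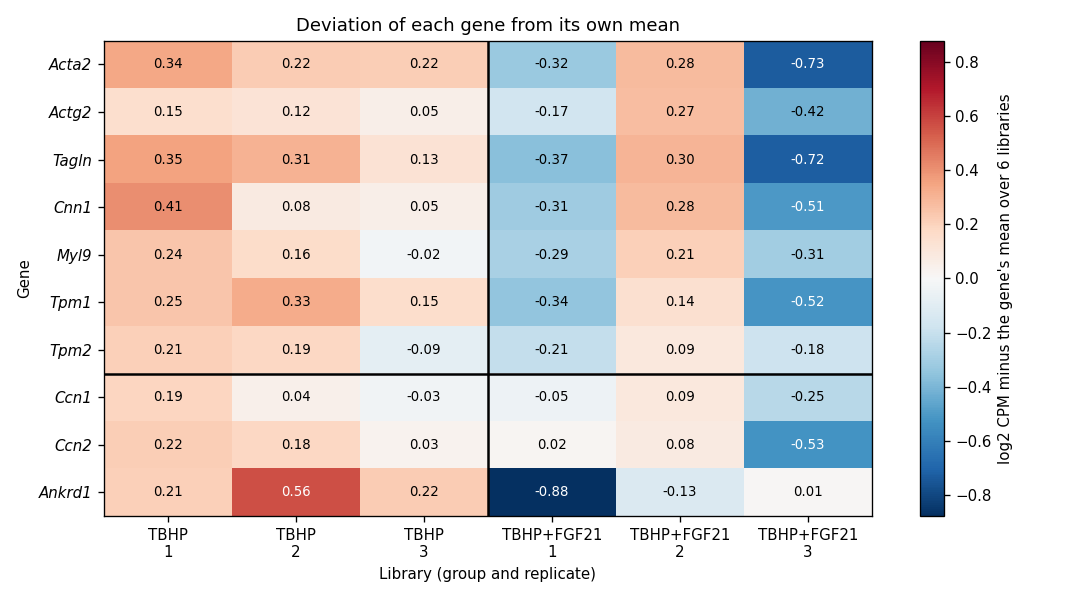
Deviation of log2 CPM from the mean of each gene over the 6 libraries (color and printed value, log2 units), with the 10 genes in rows and the libraries in columns. The contractile genes have negative values in replicates 1 and 3 of the TBHP+FGF21 group and positive values in replicate 2, which averages 0.22.

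The spread was therefore unequal between the groups for most contractile genes. Among the TBHP libraries, the SD of log2 CPM was 0.07 for Acta2 and 0.12 for Tagln, at percentiles 17.2 and 42.0 of all genes tested. Among the TBHP+FGF21 libraries it was 0.51 and 0.52, at percentiles 94.1 and 94.7. Cnn1 was at percentile 90.3 and Actg2 at 86.2 in the TBHP+FGF21 group, against 70.9 and 8.71 in the TBHP group. Tpm2 and Ccn1 did not share this and lay at percentiles 55.8 and 56.2. These percentiles are a description of 3 libraries a group, and the difference in spread was not tested.

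Replicate 2 of the TBHP+FGF21 group decided whether the contractile genes were called. Without it, 5 of the 7 contractile members had an adjusted p under 0.05 by edgeR, all lower, where 3.72% of 11559 genes tested were called lower and 7.5% in either direction. The log2 fold change was then -0.79 for Tagln (adjusted p = 0.00102), -0.76 for Acta2 (adjusted p = 0.00115), -0.66 for Tpm1 (adjusted p = 0.00126), -0.59 for Cnn1 (adjusted p = 0.0087) and -0.42 for Myl9 (adjusted p = 0.023). Actg2 (-0.39, adjusted p = 0.057) and Tpm2 (-0.30, adjusted p = 0.118) were not called, nor were Ccn2, Ccn1 and Ankrd1, whose adjusted p lay between 0.121 and 0.381. Without replicate 3 of the same group the differences shrank instead, to -0.25 for Acta2, -0.25 for Tagln, -0.32 for Tpm1, -0.17 for Cnn1, -0.14 for Myl9 and -0.03 for Actg2. Leaving out any library other than replicate 2 of the TBHP+FGF21 group left all 10 members with an adjusted p above 0.05.

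The treatment label of replicate 1 is the one that names FGF21, and this library alone was also set against the TBHP group. Its spread was assumed to be that of the TBHP libraries, since it has no replicate of its own. Tagln (-0.63, adjusted p = 0.00421), Acta2 (-0.58, adjusted p = 0.00929) and Tpm1 (-0.58, adjusted p = 0.0119) were then under 0.05 by edgeR, 3 of the 10 members, where 1.57% of 11752 genes tested were called lower and 2.77% in either direction. For Ccn2 and Ccn1 the values were -0.12 and -0.11. This compares 1 library with 3 and does not stand for the condition. The likeness of TBHP+FGF21 replicate 2 to the TBHP libraries was not particular to the members. A chi-square between the counts of 2 libraries, averaged over genes, is larger where they are less alike. For replicate 2 it was 7.07, 9.14 and 8.20 against TBHP replicates 1, 2 and 3. Against replicates 1 and 3 of its own group it was 21.9 and 42.5, and among the TBHP libraries 6.7 to 22.3. Whether the label, the culture or the library sets replicate 2 apart was not tested.

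**Figure D3:**
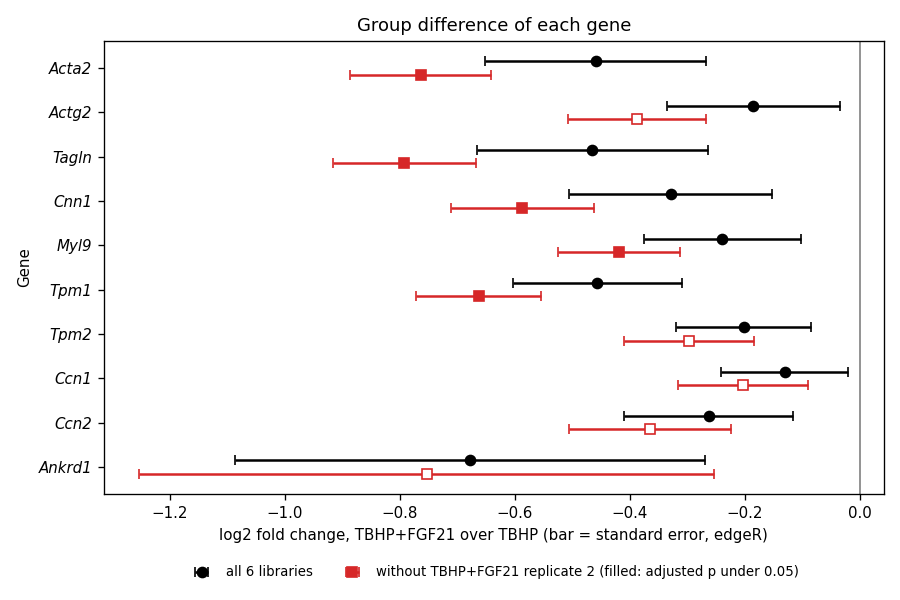
Log2 fold change of TBHP+FGF21 over TBHP for each of the 10 genes, with its standard error from edgeR, over all 6 libraries (black circles) and with TBHP+FGF21 replicate 2 left out (red squares, filled where the adjusted p was under 0.05). All values are below 0, and 5 contractile genes have a filled square.

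Other genes of the actin cytoskeleton were read from a list of 32 actin, myosin and thin filament genes, of which 30 passed the filter. The median of their log2 fold changes was -0.10, with 23 values below 0 and 7 above, and none had an adjusted p under 0.05. At an unadjusted p under 0.05 there was 1 lower gene and 1 higher gene, against 4.29% and 4.63% of all genes tested. The lower one was Cald1, which encodes caldesmon, a regulator of actomyosin, at 1282, 1382 and 1330 CPM in the TBHP group and 978.6, 1283 and 833.6 CPM in the TBHP+FGF21 group (log2 fold change -0.37). It followed the order of Acta2, with replicates 1 and 3 low and replicate 2 at the lower edge of the TBHP libraries. The higher one was Smtn, which encodes smoothelin, a protein of contractile smooth muscle, at 339.2, 307.5 and 363.6 CPM against 408.2, 364.8 and 414.4 CPM (log2 fold change 0.23), so that the groups were just apart, as were 4.9% of all genes tested in that direction. The myosin heavy chain of smooth muscle, Myh11, was at 5.98 to 7.13 CPM in the TBHP group and 6.16 to 6.71 CPM in the TBHP+FGF21 group, with a log2 fold change of -0.02. For Actb the value was -0.10, with a 95% interval from -0.31 to 0.11. Without replicate 2 of the TBHP+FGF21 group, 7 genes of the list were lower and 1 was higher at an adjusted p under 0.05 by edgeR, where 3.72% of all genes were called lower and 7.5% in either direction. Des, the desmin gene, was the higher one in that fit (log2 fold change 0.43, adjusted p = 0.0265 by edgeR).

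The other YAP and TAZ targets did not share one direction. Of 18 listed genes, 17 were tested, 9 with a value below 0 and 8 above, with a median of -0.05. Unadjusted, 4 of the 17 had a p under 0.05, all of them lower, beside 4.29% of all genes in that direction, and none had an adjusted p under 0.05 by edgeR. With TBHP+FGF21 replicate 2 left out, 5 were called lower and 0 higher by edgeR, beside 3.72% of all genes called lower. Nuak2, a kinase of the AMPK family, was at 76.4, 67.3 and 62.5 CPM in the TBHP group and 38.3, 68.2 and 31.0 CPM in the TBHP+FGF21 group (log2 fold change -0.58). Gadd45a, a stress and DNA damage response gene, was at 369.2, 368.9 and 353.3 CPM against 267.3, 356.6 and 200.4 CPM (-0.41). In both, replicates 1 and 3 of the TBHP+FGF21 group were low and replicate 2 was within the TBHP range. The others were F3, which encodes tissue factor (-0.33), and Igfbp3, an insulin-like growth factor binding protein (-0.53), whose groups did not overlap. Axl, a receptor tyrosine kinase that is also a YAP target, was higher in every TBHP+FGF21 library, with a log2 fold change of 0.13 (adjusted p = 0.628 by edgeR). It is named because it went against Ccn2, a choice made after its values were seen.

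Transcripts of the factors themselves differed less between the groups than those of Acta2 or Tagln. Srf was at 93.8, 83.3 and 96.1 CPM in the TBHP group and 75.8, 92.6 and 95.7 CPM in the TBHP+FGF21 group, with a log2 fold change of -0.05. Myocd, the gene of myocardin, was at 2.70 to 5.36 CPM over all libraries (-0.09, standard error 0.27). Mrtfa, the gene of MRTF-A, was the one of these with an unadjusted p under 0.05. It was higher, at 118.6, 95.5 and 126.3 CPM against 140.6, 116.3 and 162.9 CPM (log2 fold change 0.30, adjusted p = 0.553 by edgeR), while the groups overlapped. With TBHP+FGF21 replicate 2 left out, Mrtfa was called higher (0.43, adjusted p = 0.0347 by edgeR), and Myocd was at -0.45 (adjusted p = 0.255). Mrtfb was not analysed here.

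Among 19 tested genes of the Hippo kinases, YAP, TAZ and TEAD list, no gene had an unadjusted p under 0.05, and the median log2 fold change was -0.04. Yap1 was at 68.6 to 79.8 CPM in the TBHP group and 67.4 to 83.9 CPM in the TBHP+FGF21 group, with a log2 fold change of 0.07 and a 95% interval from -0.16 to 0.30. Wwtr1, which encodes TAZ, had a log2 fold change of -0.00049 with an interval from -0.23 to 0.23. The values were -0.06 for Tead1, -0.18 for Tead2, 0.0016 for Tead3 and -0.04 for Tead4. The smallest p was that of Stk3, which encodes the Hippo kinase MST2, at a log2 fold change of -0.24 (unadjusted p = 0.0647, adjusted p = 0.553 by edgeR). Amot, which encodes angiomotin, a binding partner of YAP, had the value farthest from 0 and is named for that after its values were seen. It was at 29.8, 32.1 and 32.9 CPM in the TBHP group and 22.9, 33.3 and 13.1 CPM in the TBHP+FGF21 group, with replicate 2 just above the TBHP libraries. Its log2 fold change was -0.46 (adjusted p = 0.559 by edgeR), and -0.81 with that replicate left out (adjusted p = 0.00819), the 1 call of the list in that fit. Neither the place of YAP in the cell nor the activity of the cofactors that drive SRF was measured here.

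**Figure D4:**
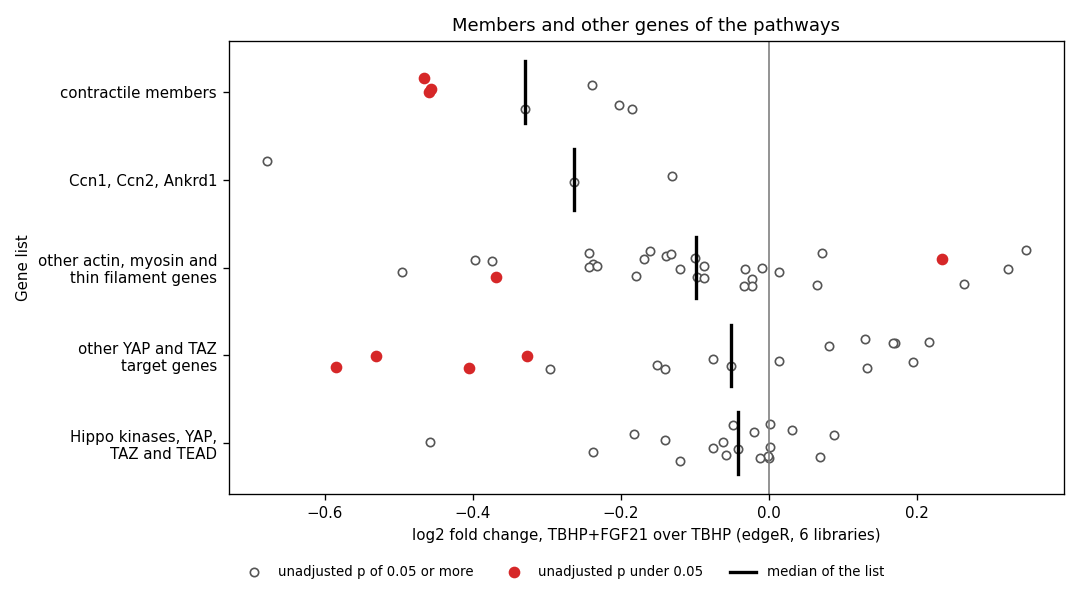
Log2 fold change of TBHP+FGF21 over TBHP (edgeR, 6 libraries) for the genes of each list that were tested, with 1 point per gene, filled where the unadjusted p was under 0.05, and a bar at the median. The contractile members have a median of -0.33, the targets Ccn1, Ccn2 and Ankrd1 one of -0.26, and the 3 other lists medians between -0.10 and -0.04.

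The identity of the cells was read from marker lists. Of 12 notochordal and nucleus pulposus markers, 11 had a row, and Tbxt, Shh and Noto were at 0 in every library, and Col2a1 was at 0.408 to 0.782 CPM. The keratin gene Krt8, which notochordal cells express, was detected at 2.31 to 4.27 CPM, and Cd24 at 0.718 to 2.13 CPM. Acan, the aggrecan gene of disc and cartilage matrix, was at 2681, 2506 and 2939 CPM in the TBHP group and 3476, 2864 and 4355 CPM in the TBHP+FGF21 group (log2 fold change 0.40, unadjusted p = 0.0156 by edgeR). It was thus high in replicates 1 and 3, where the contractile genes were low, and the groups overlapped through replicate 2. Of the 6 markers of the list that were tested, 2 had a log2 fold change above 0 (Acan and Sox9) and 4 below, with a median of -0.30. Sox9 was at 0.56 (unadjusted p = 0.0241 by edgeR). Both higher markers and 0 lower ones had an unadjusted p under 0.05, beside 4.63% and 4.29% of all genes. With TBHP+FGF21 replicate 2 left out, 2 were called higher and 0 lower by edgeR, beside 7.5% of all genes in either direction. Among the lower ones, Krt8 was at -0.43 with the groups apart (unadjusted p = 0.0516 by edgeR), Cd24 at -0.55 and Car3 at -0.34. The part of these markers in the result was not tested. Of 10 markers of vascular smooth muscle and pericytes, 9 had a row, with summed levels of 1682 to 1939 CPM in the TBHP group and 1880 to 2086 CPM in the TBHP+FGF21 group. Most of these sums was Cspg4 alone, at 1111 to 1279 CPM in the TBHP group and 1130 to 1269 CPM in the TBHP+FGF21 group. Within that list Notch3, Kcnj8, Abcc9 and Smtn were higher and Mcam was lower at an unadjusted p under 0.05, 5 of 8 tested, beside 8.92% of all genes, and Rgs5 was at or near 0. Abcc9, a subunit of the ATP-sensitive potassium channel, was at 70.7, 64.3 and 74.3 CPM in the TBHP group and 107.1, 67.1 and 119.8 CPM in the TBHP+FGF21 group, and Kcnj8, its pore subunit, at 12.1, 10.7 and 10.6 against 16.9, 9.72 and 21.3 CPM. Both were thus high in replicates 1 and 3, where the contractile genes were low, and not in replicate 2. Des, which is also on the list, had the same order. It was at 156.1, 140.0 and 148.7 CPM in the TBHP libraries and 174.3, 136.8 and 222.6 CPM in the TBHP+FGF21 libraries (unadjusted p = 0.0962 by edgeR). The remaining tested markers of the list did not share this order. Notch3 and Smtn were higher in every TBHP+FGF21 library, replicate 2 included. Notch3 was at 1.96, 2.09 and 2.34 CPM against 4.12, 2.63 and 5.93 CPM. The log2 fold change was -0.46 for Mcam, -0.02 for Myh11 and 0.01 for Cspg4. With replicate 2 left out, 4 markers of the list were called higher and 1 lower by edgeR, beside 7.5% of all genes in either direction. The ranges of the sum overlapped, and the part of these markers in the result was not tested either. The summed endothelial markers (5 of 6 with a row, Cdh5, Kdr and Emcn at 0) stayed between 0.474 and 1.10 CPM. Of the 6 macrophage and leukocyte markers, Ptprc and Adgre1 were at 0, and the sum was 32.2 to 37.9 CPM in the TBHP group and 26.8 to 33.0 CPM in the TBHP+FGF21 group. Most of it was Cd14 alone, at 30.3 to 35.6 CPM in the TBHP group and 25.0 to 30.6 CPM in the TBHP+FGF21 group. For skeletal muscle, 8 of 10 markers had a row and Tnni2, Myog and Myod1 were at 0, while most of the sum of 152.6 to 235.5 CPM over all libraries was Des, the desmin gene, which smooth muscle also expresses.

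The genes whose profile over the 6 libraries was most like that of the contractile members were Lrrc75b, Uchl1 and Srsf2. Their log2 CPM, centred on its mean, differed from the mean profile of the members by a root mean square of 0.041, 0.049 and 0.055, where the median over all other genes tested was 0.316. Lrrc75b was at 178, 166.6 and 164.1 CPM in the TBHP group and 126.5, 175.3 and 110.9 CPM in the TBHP+FGF21 group, again with replicate 2 beside the TBHP libraries. For the profile of Ccn1, Ccn2 and Ankrd1, the nearest were Rgcc, Ssbp1 and Yae1, at 0.037, 0.047 and 0.047 against a median of 0.258. In TBHP+FGF21 replicate 1 that profile rests on Ankrd1, at -0.88 where Ccn1 and Ccn2 were at -0.05 and 0.02. With 6 libraries, such likeness is a description.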

How the data were processed

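RNA-seq counts of 6 libraries of rat NPCs were analysed, 3 for TBHP and 3 for TBHP+FGF21. Replicates are described as biological in the design of the series, but whether they came from separate animals was not given, so p-values measure the spread between these samples. The authors deposited whole read counts per Ensembl gene and sample, and a combined table per gene symbol. The deposited combined table has 22 rows that are not whole numbers, for a reason not given in the sources used here, and was therefore handled as estimated counts. It was rounded to whole counts, with ties taken upward. The processing notes name STAR and featureCounts, and the genome build and annotation were not given in the sources used here. Lines that name no gene (unmapped, multimapping, without a feature, ambiguous) stayed out of library sizes. Each member's counts were identical to those of 1 row of the per-sample files. The column for 1 strand held 44.0% to 53.3% of the stranded reads of the members other than Ankrd1, so a gene and an antisense partner cannot be told apart.

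The fit used edgeR 4.0.16 in R 4.3.3 with TMM, filterByExpr (minimum count 10, minimum total 15) and a design of condition only. The standard error was taken from the size of the log2 fold change over the root of its F value. Log2 CPM used a prior count of 1. The limit for a count of 0 was 3 counts, for counting error only. Alternatives were DESeq2 1.42.0, limma 3.58.1, other filters, the per-sample counts, the replicate number as a block and the omission of libraries. Scripts were tested on simulated counts. No library repeated another within sampling noise.

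The members and the gene lists were chosen with earlier results of these data known. The genes named were all members, the regulators of SRF and YAP, each list's genes with an unadjusted p under 0.05 or else the one with the smallest p, and the 3 genes most like each profile. The result of 1 further list is not reported here. Marker lists and genes named for their values stand outside this rule.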

Additional observations from a re-analysis of the deposited data

How the results depend on the processing

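All 10 members kept a log2 fold change below 0 under every alternative in which they were tested, and Ankrd1 could not be tested with a CPM of at least 5 required in 3 libraries. At an adjusted p under 0.05, where edgeR called 1 gene, the DESeq2 Wald test called 4. The count was 5 without a filter on low counts and 325 with replicate 1 of the TBHP+FGF21 group alone. It was 0 for the per-sample counts, for limma-voom and for limma on logged normalized counts, where 1082, 996 and 669 genes had an unadjusted p under 0.05, and it ranged from 0 to 867 when 1 library was left out. Members with an unadjusted p under 0.05 numbered 3, and 6 with replicate 1 of the TBHP+FGF21 group alone, where 14.2% of all genes had one. The count was 1 to 8 with 1 library left out, namely 8 without TBHP+FGF21 replicate 2, where 23.6% of all genes had one, and 1 without TBHP+FGF21 replicate 1 or 3 or TBHP replicate 1 or 2. The median over the contractile members ranged from -0.59 to -0.17 with 1 library left out. The median over Ccn1, Ccn2 and Ankrd1 was -0.12 with replicate 1 of the TBHP+FGF21 group alone and ranged from -0.37 to -0.087 with 1 library left out. The cause was not tested.

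Whether the replicate numbers pair the samples could not be told from the values. Deviations from the group means of libraries with the same number correlated across genes at -0.12, 0.20 and 0.14, and not every library correlated best with its own number. With the replicate number as a block, 2 genes had an adjusted p under 0.05 and 6 members an unadjusted p under 0.05 (all lower, beside 7.53% of all genes tested), and no member was called. In either direction, 14% of all genes had an unadjusted p under 0.05 by edgeR with the block, and 8.92% without it. Depth limits what can be said of Ankrd1, with 5 to 16 counts a library.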
